A study of Mus musculus with 2 samples.

Results

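In sections of mouse dorsal skin, 262 of 59588 cells carried enough transcripts of Cpa3, the gene of carboxypeptidase A3, to be set apart as Cpa3-high cells: 213 of 44282 cells in skin treated with SspA+HDM and 49 of 15306 cells in mock-treated skin. A cell was a segmented outline with at least 20 decoded gene transcripts of quality score 20 or above. It was kept when it held at least 5 Cpa3 transcripts, when these were at least 5% of its transcripts, and when the 4 epithelial genes Trim29, Dsc3, Serpinb5 and S100a14 together made up less than 8% of them. The cells were thus chosen by measured values, and the level of Cpa3, the cell total and the level of those 4 genes describe them and are no findings.

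Carboxypeptidase A3 is a metalloprotease stored in the secretory granules of mast cells, where it lies with chymases, tryptases, histamine and serglycin and is released when the cell degranulates. Mast cells of the skin reside in the dermis near vessels, nerves and hair follicles, and are known for immediate allergic reactions after crosslinking of IgE on their high-affinity receptor. Mouse basophils also transcribe Cpa3, so this gene alone does not separate these cell types.

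The tissue was dorsal skin of C57BL/6 mice, shaved and depilated, then treated on the surface with SspA and HDM or, as the mock treatment, with PBS, and taken at day 7. SspA is the name of a staphylococcal serine protease and HDM the usual abbreviation of house dust mite, although the labels spell out neither. Transcripts of 379 genes were decoded in place by Xenium In Situ, which reads gene-specific probes by imaging, in 1 section of 5 µm per treatment. Each section held 2 strips of skin, and the labels do not say whether these came from separate animals.

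With 1 section per treatment no test between treatments was possible. Intervals are 95% intervals for counting error only, and a difference between sections cannot be told apart from a difference between animals, blocks or slides. The SspA+HDM section gave 8124205 gene transcripts of sufficient quality, 97.6% of them inside outlines, and the mock section 2461475, with 94.5% inside outlines. The median cell held 127 transcripts in SspA+HDM and 108 in mock. No outline name was shared by the sections.

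The gene that accompanied Cpa3 most closely was Cyp11a1, which encodes the mitochondrial enzyme that cleaves the side chain of cholesterol to give pregnenolone, the first step of steroid hormone synthesis. The promoter windows of both genes are shown because the transcripts of these genes were found together in the cells. They are RefSeq sequences of build GRCm38.p6, from 250 bases before to 50 bases after an annotated start, written 5′ to 3′ along the transcribed strand. Capitals mark matches of a GATA-type motif on either strand: GATAA preceded by A or by T, or else GATAG preceded by A or by T. None of these windows holds more than 1 match.
Cpa3, chr3:20242132-20242431, minus strand: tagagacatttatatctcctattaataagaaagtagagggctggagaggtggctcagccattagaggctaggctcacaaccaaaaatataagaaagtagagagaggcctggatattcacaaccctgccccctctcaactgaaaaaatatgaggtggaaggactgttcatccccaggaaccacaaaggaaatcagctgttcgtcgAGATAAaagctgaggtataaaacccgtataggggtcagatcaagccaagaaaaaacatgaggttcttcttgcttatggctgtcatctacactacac
Cyp11a1, upstream start, chr9:57997774-57998073, plus strand: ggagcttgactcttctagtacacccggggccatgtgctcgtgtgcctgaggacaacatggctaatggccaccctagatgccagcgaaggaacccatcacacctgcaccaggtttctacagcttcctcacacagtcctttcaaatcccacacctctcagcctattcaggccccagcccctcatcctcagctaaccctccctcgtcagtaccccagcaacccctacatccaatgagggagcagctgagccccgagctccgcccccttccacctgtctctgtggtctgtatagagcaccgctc
Cyp11a1, downstream start, chr9:58014702-58015001, plus strand: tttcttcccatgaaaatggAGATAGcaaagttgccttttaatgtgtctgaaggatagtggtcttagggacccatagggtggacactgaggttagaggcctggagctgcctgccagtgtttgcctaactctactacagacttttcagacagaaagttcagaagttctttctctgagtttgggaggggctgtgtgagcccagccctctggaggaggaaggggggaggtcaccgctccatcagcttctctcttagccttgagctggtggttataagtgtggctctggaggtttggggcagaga

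The Cpa3 window held 1 such match, beginning 46 bases before the start. The downstream Cyp11a1 window held 1, beginning 231 bases before the start, and the upstream Cyp11a1 window held none of these letters. Of 32851 windows of the same length, 29.8% held at least 1 match. A match describes the letters of the window and says nothing of a factor bound there.

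The name mast cell could be checked on few genes. Of the 37 genes of the mast cell marker list, 5 were on the panel: Cpa3, Rac2, Alox5ap, Ctsg and Ltc4s. The genes that define mast cells most firmly, such as the stem cell factor receptor, the IgE receptor subunits, the chymases and tryptases and histidine decarboxylase, were not among the genes measured, and none of the 8 genes of the basophil list was measured. Rac2, a small GTPase of blood cells, stood far above other cells in both sections. Ctsg, a serine protease of mast cell and neutrophil granules, had 11 transcripts in 8 of 213 cells in SspA+HDM (3.76%, interval 1.64 to 7.27%), against 0.134% of other cells there. In mock it had 0 transcripts in 49 cells, which by the limit of 3 counts allows a share of cells with a transcript of up to 6.12%. Mpo, the peroxidase of neutrophil granules, was at 0 in all 262 cells, and Prg2, a granule protein of eosinophils, had 1 transcript in them. Both were also rare in other cells, with Mpo in 0.234% in SspA+HDM and 0.190% in mock, and Prg2 in 0.379% and 0.151%. Counts this low do not separate Cpa3-high cells from other cells. Csf3r, of the granulocyte list, was in 7.51% of Cpa3-high cells in SspA+HDM (4.35 to 11.9%), against 5.50% of other cells. In mock Cpa3-high cells it had 0 transcripts. The cells are therefore called Cpa3-high cells here, and mast cells and basophils cannot be told apart among them.

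Cpa3-high cells were more frequent in the SspA+HDM section on every scale used. They were 0.481% of cells in SspA+HDM (interval 0.419 to 0.550%) and 0.320% in mock (0.237 to 0.423%), a ratio of 1.5 (1.10 to 2.09). Among cells below the epithelial threshold the shares were 0.884% and 0.561%, a ratio of 1.58 (1.15 to 2.20). Per millimetre of strip length there were 14.3 cells in SspA+HDM (12.4 to 16.3) and 3.55 in mock (2.62 to 4.69), a ratio of 4.03 (2.94 to 5.61). The skin of the SspA+HDM section was thicker, with median strip depths of 350 and 360 µm against 210 and 217 µm in mock. Per millimetre it held more cells both above and below the epithelial threshold. Per mm2 of tissue there were 40.2 Cpa3-high cells in SspA+HDM and 16.6 in mock, a ratio of 2.42 (1.77 to 3.38).

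Per millimetre, both SspA+HDM strips stood above both mock strips. The SspA+HDM strips held 96 and 117 Cpa3-high cells, or 12.9 and 15.7 per mm, and the mock strips 28 and 21, or 4.05 and 3.04 per mm. As shares of cells the strips read 0.471% and 0.489% in SspA+HDM, against 0.391% and 0.258% in mock. The intervals of the first mock strip (0.260 to 0.565%) and of both SspA+HDM strips overlapped, so on the share alone that strip could not be set apart from them. The interval of the second mock strip (0.160 to 0.394%) overlapped that of SspA+HDM strip 1 (0.382 to 0.575%). It did not overlap that of SspA+HDM strip 2 (0.405 to 0.586%). Across 1-mm stretches the number of Cpa3-high cells ran from 5 to 27 and from 11 to 25 in the SspA+HDM strips, and from 1 to 8 and from 1 to 5 in the mock strips. No full stretch in either section was without them. The fullest SspA+HDM stretches, with 27 and 25 cells, had tissue depths of 520 and 322 µm.

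**Figure D1:**
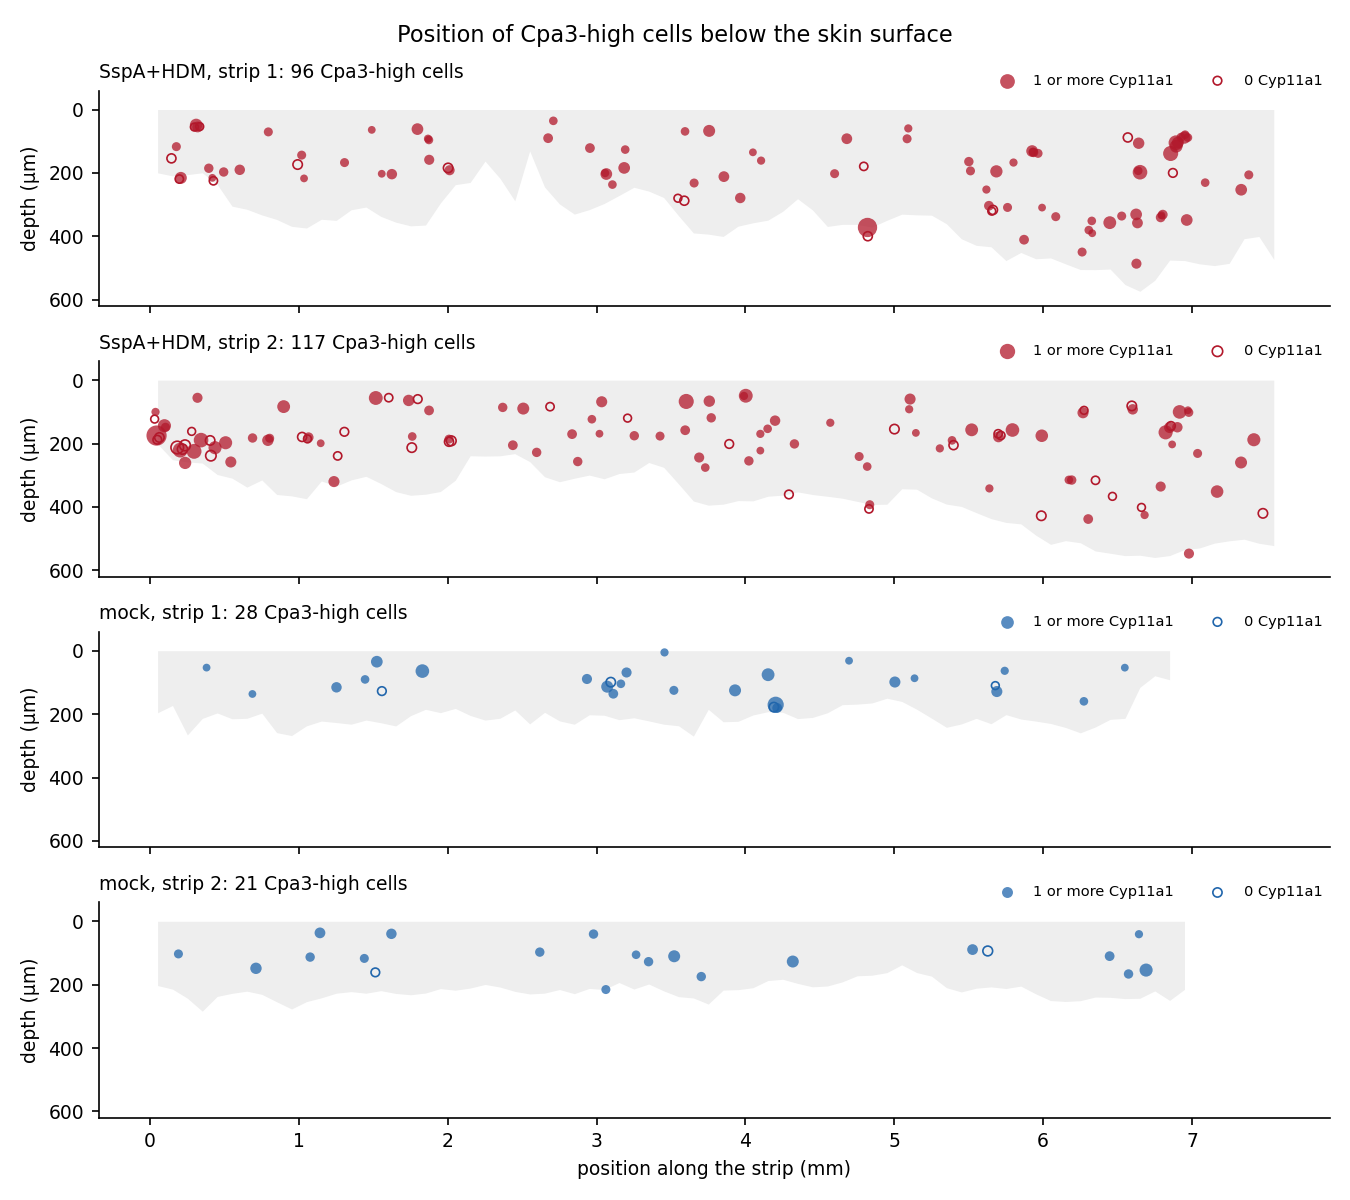
Each panel is 1 strip, with position along the strip (mm) across and depth below the surface (µm) downward; the grey area is the tissue, circles are Cpa3-high cells with area growing with their Cpa3 count, and open circles hold no Cyp11a1. The SspA+HDM strips hold 96 and 117 cells and the mock strips 28 and 21, and all panels share 1 scale.

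The cells lay through the depth of the skin in both sections. Their median depth was 185 µm in SspA+HDM (quartiles 122 and 239) and 110 µm in mock (75.7 and 129), which was 54.7% and 51.6% of the tissue depth. Other non-epithelial cells lay at medians of 55.5% and 52.5%. In 4 equal bands of relative depth from the surface down, the SspA+HDM section held 36, 61, 76 and 40 of them and the mock section 7, 17, 21 and 4. As shares of the non-epithelial cells of each band they were 0.770%, 1.05%, 1.02% and 0.651% in SspA+HDM and 0.535%, 0.623%, 0.784% and 0.198% in mock. As shares of all cells the third band read 0.642% in SspA+HDM and 0.748% in mock, with overlapping intervals. The median distance to the nearest epithelial cell was 24.0 µm in SspA+HDM and 23.9 µm in mock. For other non-epithelial cells it was 23.2 and 32.9 µm.

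Cpa3-high cells lay closer together in the SspA+HDM section than in mock, though most of them there had no other within 30 µm. Another Cpa3-high cell was within 30 µm of 75 of 213 cells in SspA+HDM (35.2%, interval 28.8 to 42.0%) and of 7 of 49 in mock (14.3%, 5.94 to 27.2%). The largest chain of cells linked at that distance had 7 members in SspA+HDM and 3 in mock. The median distance to the nearest other Cpa3-high cell was 51.6 µm (lower quartile 14.8) in SspA+HDM and 118 µm (88.1) in mock. A higher density alone brings cells closer, and how much of the difference it makes was not tested.

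The Cpa3 count per cell had a median of 9 in SspA+HDM (quartiles 7 and 13, range 5 to 55) and of 9 in mock (7 and 13, range 5 to 34). The cell total had a median of 68 in SspA+HDM (range 21 to 354) and 81 in mock (range 21 to 317), below the 100 and 95 of other non-epithelial cells. Cpa3 made up a median of 13.3% of the cell in SspA+HDM (quartiles 9.21 and 20.5%) and 11.1% in mock (7.92 and 18.9%). The cell with the most Cpa3 held 55 of 284 transcripts and 12 Cyp11a1 in SspA+HDM, and 34 of 314 transcripts and 10 Cyp11a1 in mock. Outline areas had medians of 141 µm2 in SspA+HDM and 184 µm2 in mock, against 133 and 205 µm2 for other non-epithelial cells. Transcripts per 100 µm2 of outline were 47.9 in SspA+HDM and 43.8 in mock, where other non-epithelial cells had 89.7 and 60.4. A low total makes it easier to reach 5% of the cell, so these totals follow in part from the rule.

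The threshold cut through a continuous range. In SspA+HDM 25 cells were kept with exactly 5 Cpa3 transcripts, while 35 cells had 4 that made up at least 5% of the cell. In mock these numbers were 6 and 13. Cells kept at 5 held 144 Cyp11a1 per 100 cells in SspA+HDM and 133 in mock, and those not kept at 4 held 94.3 and 53.8, so Cyp11a1 was also present in cells just outside the rule. A further 57 cells in SspA+HDM and 13 in mock had at least 5 Cpa3 transcripts but fell below 5%, at median totals of 178 and 229. The epithelial limit alone removed 1 cell in SspA+HDM and 0 in mock.

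Most Cpa3 transcripts lay outside the cells kept. The Cpa3-high cells held 33.7% of all Cpa3 transcripts in SspA+HDM (2332 of 6926) and 29.8% in mock (531 of 1781). Other outlines with at least 5 Cpa3 held 5.56% and 5.17%. Among outlines with fewer, those within 30 µm held 20.3% and 11.5%, those farther away held 37.0% and 47.6%, and 3.47% and 6.01% lay outside any outline. A Cpa3 transcript was found in 24.9% of neighbouring cells in SspA+HDM and 18.1% in mock, where a neighbour is a cell that was not kept, with its centre within 30 µm of a Cpa3-high cell. Of cells farther away, 4.91% and 4.31% had one, and of epithelial cells 2.36% and 1.61%. Epithelial cells, which should lack the gene, had median totals of 155 and 126 transcripts. Levels are given as CPM over the panel, the count of a gene scaled to the same total of gene transcripts in each set of cells. Over all outlines of a section, Cpa3 read 843 CPM in SspA+HDM and 720 CPM in mock, a ratio of 1.17 (1.11 to 1.24), and per millimetre of strip it had 448 and 121 transcripts, a ratio of 3.70 (3.51 to 3.90).

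Cyp11a1 was the gene, among those that did not choose the cells, with the highest ratio of Cpa3-high cells to other cells. It read 31430 CPM in Cpa3-high cells and 288 CPM in other cells of the SspA+HDM section, a ratio of 109 (99.2 to 120). In the mock section it read 23730 CPM and 83.4 CPM, a ratio of 284 (224 to 360). Against neighbouring cells the ratios were 42.8 (37.1 to 49.5) in SspA+HDM and 87.9 (56.6 to 142) in mock. With Cpa3 counted, it ranked 5 among the genes of the SspA+HDM cells, with 3.14% of their transcripts, and 7 among those of the mock cells, with 2.37%.

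A Cyp11a1 transcript was found in 163 of 213 Cpa3-high cells in SspA+HDM (76.5%, interval 70.3 to 82.0%) and in 43 of 49 in mock (87.8%, 75.2 to 95.4%). With each cell thinned to 20 transcripts, the shares were 46.1% and 45.3%. Other non-epithelial cells had it in 4.78% and 1.58%, and epithelial cells in 0.530% and 0.274%, both unthinned. The non-epithelial class is set by the 4 genes alone and also holds keratinised cells of the SspA+HDM surface, described further on, that carry Cyp11a1. The level per 100 Cpa3 transcripts was 23.9 in SspA+HDM (21.8 to 26.3) and 21.5 in mock (17.4 to 26.3), and by strip 25.1 and 23.0 in SspA+HDM and 18.7 and 25.2 in mock. The strips of the mock section spanned both SspA+HDM strips, so no difference between treatments in this ratio was detectable at this depth. In cells with 10 or more Cpa3 it was 24.3 in SspA+HDM and 21.4 in mock, and in cells with 5 to 9 Cpa3 it was 23.4 and 21.6.

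Within the SspA+HDM section the ratio of pooled counts was lower where the cells lay together. Cells with another Cpa3-high cell within 30 µm had 18.0 Cyp11a1 per 100 Cpa3 (15.04 to 21.3), and cells without one had 27.5 (24.5 to 30.7). In mock the 7 cells with a companion had 17.3 (9.71 to 29.2) and the other 42 cells 22.4 (17.8 to 28.0), with overlapping intervals. By depth, cells above the midpoint of the tissue had 26.7 (23.4 to 30.4) and cells below it 21.5 (18.7 to 24.5) in SspA+HDM, and 24.3 and 19.3 in mock. These subsets were compared after their values were seen. Their counts were pooled, so cells with many Cpa3 transcripts weigh most, and the spread between cells was not tested.

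The link between these genes was also present below the threshold. Cyp11a1 read 213 CPM in SspA+HDM cells with 0 Cpa3, 833 CPM with 1, 2516 CPM with 2 and 5788 CPM with 3 to 4. In mock the same steps read 44.3, 409.5, 1221 and 3489 CPM. No cell of these steps was among the Cpa3-high cells. Rac2 read 893, 1581, 2878 and 4419 CPM over the same steps in SspA+HDM and 426, 642, 1174 and 1342 CPM in mock. Laptm5 was also higher at each step in both sections. The steps include epithelial cells. Laptm5 was found in 13.8% of epithelial and 36.8% of other non-epithelial cells in SspA+HDM, and in 10.6% and 26.0% in mock. The part of epithelial cells in the rise of Rac2 and Laptm5 was not tested. Alox5ap was highest at 5 to 9 Cpa3 in SspA+HDM, at 10276 CPM, and at 2 Cpa3 in mock, at 4228 CPM.

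**Figure D2:**
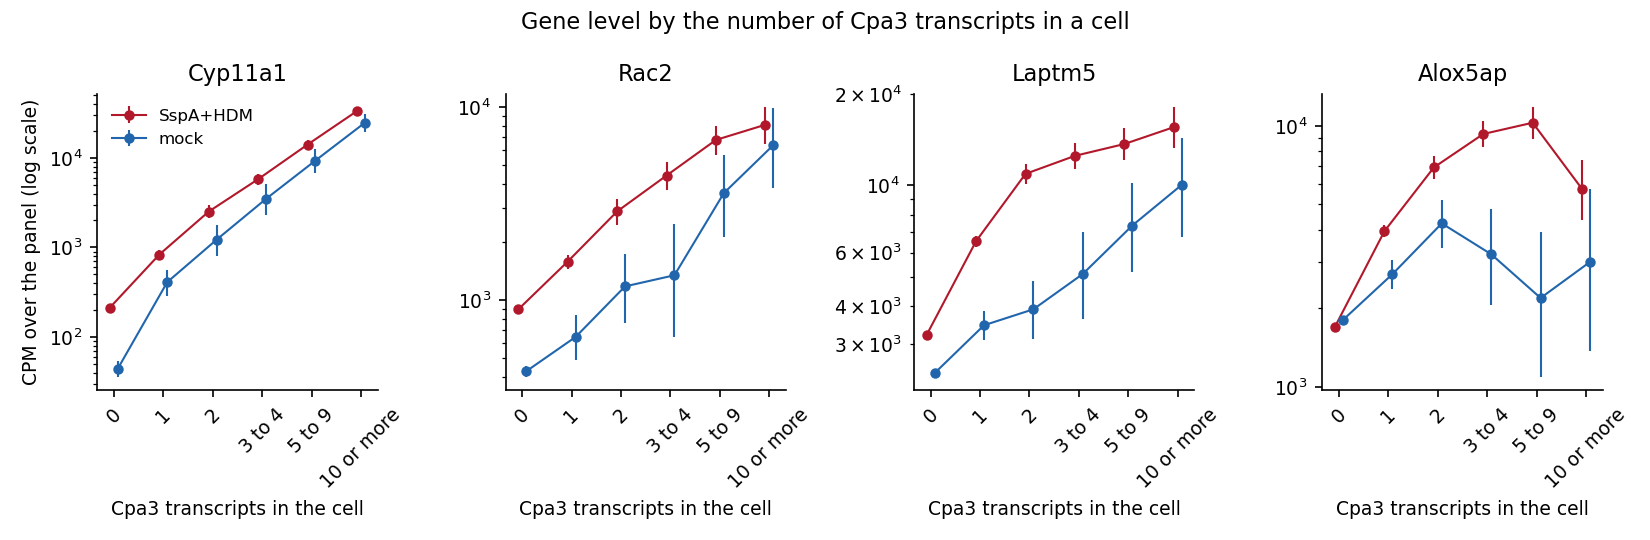
CPM over the panel (log scale) of 4 genes against the number of Cpa3 transcripts in a cell, for all cells with at least 20 transcripts; points are summed counts per section and bars are 95% Poisson intervals. Cyp11a1 climbs at every step in both sections, to 33397 CPM in SspA+HDM and 24741 CPM in mock at 10 or more Cpa3.

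Positions of single transcripts, which need no outline, also placed Cpa3 near Cyp11a1. Around a Cyp11a1 transcript there were on average 2.54 Cpa3 transcripts within 5 µm in SspA+HDM and 4.06 in mock. This was the highest mean of 345 genes in SspA+HDM, where the median gene had 0.0977, and of 263 genes in mock, where it had 0.0440. Rac2 ranked 5 in SspA+HDM at 0.356 and 2 in mock at 0.348. Mrgpra2a, a receptor of the Mas-related family named after its values were seen, ranked 2 in SspA+HDM at 0.689, from 161 transcripts in the section, of which 8 were in Cpa3-high cells.

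Cyp11a1 transcripts of the Cpa3-high cells lay largely over the nucleus: 72.9% in SspA+HDM (69.0 to 76.6%) and 72.8% in mock (63.7 to 80.7%). All transcripts of these cells did so in 26.2% and 19.8%, and Cpa3 in 43.7% and 46.9%. Cyp11a1 ranked first of the 74 genes with at least 50 transcripts there in SspA+HDM and of the 24 in mock. Satb1, a chromatin organiser of lymphocytes, followed in SspA+HDM with 69.1%, then Ndrg1, a protein of differentiation and stress responses, with 56.5%, and Rac2 with 54.4%. Car3, a carbonic anhydrase of fat and muscle, was over the nucleus in 9.03% in SspA+HDM and 7.30% in mock. In neighbours of the SspA+HDM section the nuclear shares were 45.6% for Cyp11a1, 52.1% for Satb1, 41.9% for Ndrg1 and 48.4% for Rac2, the last within the interval of Rac2 in Cpa3-high cells (46.3 to 62.3%).

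Cyp11a1 was not confined to these cells in the SspA+HDM section. Cpa3-high cells held 19.7% of its 2832 transcripts in outlines in SspA+HDM and 37.1% of 307 in mock, and cells with 0 Cpa3 held 55.9% and 31.6%. There were 166 cells with at least 3 Cyp11a1 and at most 1 Cpa3 in SspA+HDM and 2 in mock. The 166 cells lay at the outer surface, at a median of -0.516% of the tissue depth, and held a median of 487 transcripts, and 2 of them were epithelial by the 4 genes. After Cyp11a1, the highest ratios to other cells were those of Aif1l at 10.8-fold, Lce1m at 9.53-fold, Fxyd4 at 9.47-fold, Fam25c at 9.27-fold, Cnfn at 8.09-fold and Crct1 at 7.30-fold. Lor, the gene of the cornified envelope protein loricrin, was at 5.45-fold. They are among the other cells of the SspA+HDM section in the ratios above. These genes were chosen after their values were seen.

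Beside Cyp11a1, few genes stood apart from the cells around. Genes were counted where the Cpa3-high cells of both sections together held at least 50 transcripts, which gave 83 genes. A level at least 2-fold above that of all other cells in both sections was seen for 22 of them (26.5%), and one at least 2-fold below it for 8 (9.64%). The median log2 ratio of all 83 was 1.16 in SspA+HDM and 0.63 in mock. Of the other cells, 20195 of 44069 in SspA+HDM and 6566 of 15257 in mock were epithelial, and the rule limited epithelial genes. Against neighbouring cells 4 of the 83 genes were at least 2-fold higher in both sections: Cyp11a1, Rac2, Ndrg1 and Satb1.

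Rac2 read 9012 CPM in Cpa3-high cells and 958 CPM in other cells in SspA+HDM (9.41-fold, 7.99 to 11.002), and 6661 and 446 CPM in mock (14.9-fold, 10.2 to 21.2). Against neighbours it was 4.16-fold and 7.17-fold higher. A Rac2 transcript was found in 47.4% of Cpa3-high cells in SspA+HDM and 49.0% in mock. Other non-epithelial cells had one in 14.1% and 7.06%, neighbours in 15.4% and 8.23%, and epithelial cells in 7.44% and 2.62%. Ndrg1 was 5.37-fold and 2.40-fold higher than in other cells, and 3.13-fold (2.71 to 3.59) and 2.11-fold (1.495 to 2.90) higher than in neighbours. Satb1 was 4.10-fold and 2.27-fold higher than in other cells and 2.68-fold and 3.28-fold higher than in neighbours, from 55 and 17 transcripts. Laptm5, a lysosomal membrane protein of blood cells, was 4.79-fold and 4.05-fold higher than in other cells, and 1.93-fold and 2.74-fold higher than in neighbours. Both sections had these genes higher in Cpa3-high cells than in either set of other cells.

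**Figure D3:**
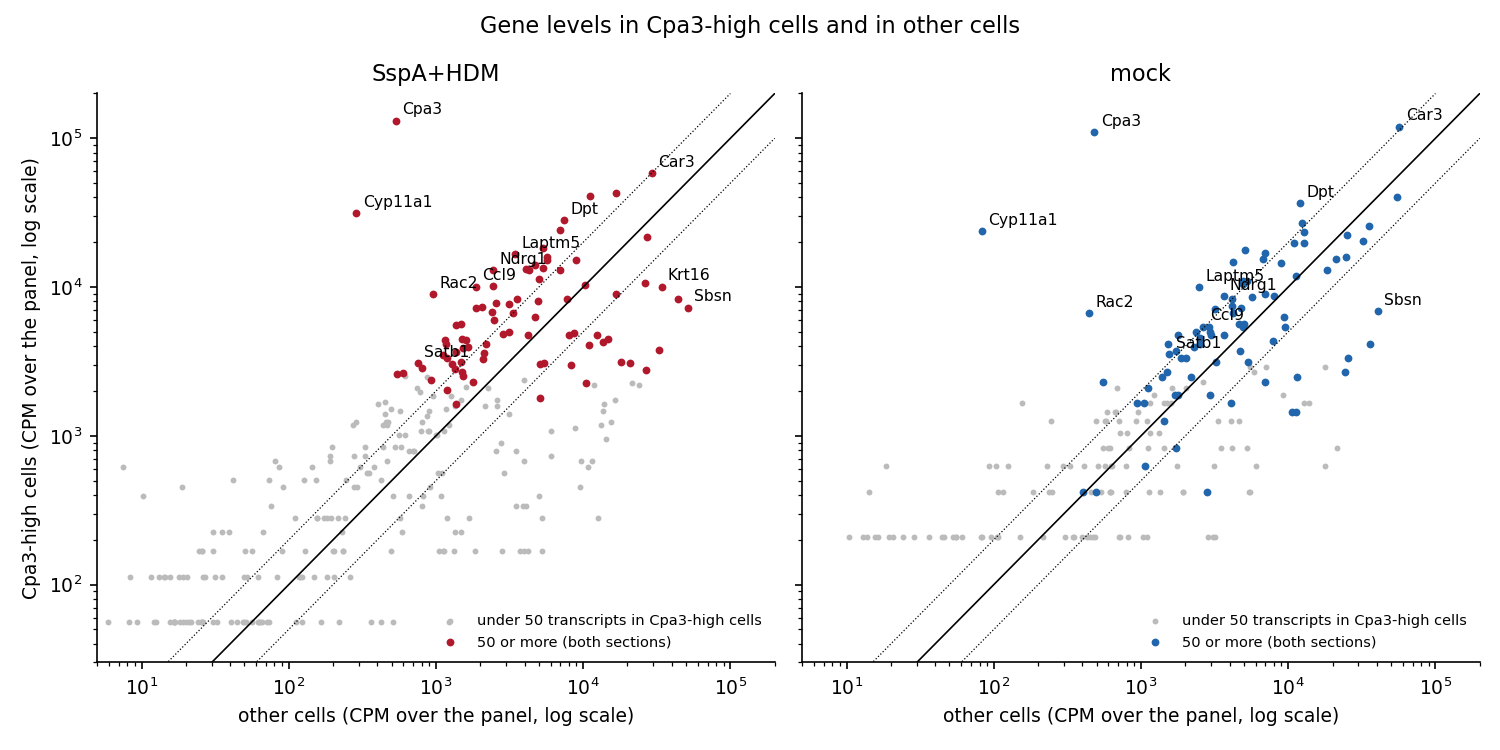
Each point is a gene, with its level in other cells across and in Cpa3-high cells upward (CPM over the panel, log scales), for genes with at least 1 transcript in both; the solid line is equality and the dotted lines 2-fold. Cpa3, which chose the cells, and Cyp11a1 stand apart in both sections, and Krt16 has no point in mock because no Cpa3-high cell there held it.

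Of the 22 genes 2-fold above all other cells, 3 are of the fibroblast list, 3 of the adipocyte list and 2 of the macrophage list. These lists had 7, 4 and 6 genes among the 83 counted, and of all 83 genes 26.5% passed. Hp, the gene of haptoglobin, was 3.47-fold higher than in other cells in SspA+HDM and 3.50-fold in mock, but 1.48-fold and 1.46-fold higher than in neighbours. Pck1, a gluconeogenic enzyme expressed in fat, was 4.43-fold and 4.17-fold higher than in other cells and 1.83-fold and 1.67-fold higher than in neighbours. Retn, the gene of resistin, was 4.16-fold and 3.46-fold higher, and 1.81-fold and 1.36-fold against neighbours. Dermatopontin (Dpt), a matrix protein of fibroblasts, was 3.79-fold and 3.07-fold higher, and 1.57-fold and 2.09-fold against neighbours. Pf4, a chemokine of platelets and macrophages, was 3.85-fold and 2.69-fold higher, and 1.38-fold and 1.43-fold against neighbours. Complement C3 was 3.05-fold and 2.47-fold higher, Pmp22 3.55-fold and 2.21-fold and Pcolce2 2.76-fold and 2.25-fold. Ccdc80 at 2.51-fold and 2.29-fold and Cp at 2.38-fold and 2.17-fold turned to 0.94-fold and 0.97-fold against neighbours in SspA+HDM. The part of transcripts assigned from the cells beside them was not tested.

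The 5 genes furthest below other cells were the epidermal genes Anxa8, Asprv1, Sbsn, Sdc1 and Calm4, and the other 3 were Krt16, Krt79 and Plbd1. Sbsn, a secreted protein of the outer epidermis, read 7266 CPM in Cpa3-high cells and 51401 CPM in other cells in SspA+HDM, and 6869 and 40668 CPM in mock. The rule removed cells rich in epithelial genes, so this direction follows in part from the choice of cells.

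Genes of mast cell mediator pathways gave few counts. Alox5ap, the activating protein of 5-lipoxygenase in leukotriene synthesis, read 7210 CPM in Cpa3-high cells and 1886 CPM in other cells in SspA+HDM (3.82-fold), and 3331 and 1865 CPM in mock (1.79-fold, 1.02 to 2.90). The mock direction was not stable: mock strip 2 alone read 1803 CPM in Cpa3-high cells, and with transcripts over the nucleus only the mock log2 ratio was -0.25. Against neighbours it was 1.55-fold (1.29 to 1.86) and 1.25-fold (0.71 to 2.08) higher. Ltc4s, the synthase of leukotriene C4, had 8 transcripts in 213 cells in SspA+HDM and 2 in 49 in mock. Its share of Cpa3-high cells, 3.76% and 4.08%, had intervals that covered the 2.31% and 3.59% of other non-epithelial cells. C5ar1, the receptor of the complement fragment C5a, had 27 and 3 transcripts, and 10.3% and 6.12% of cells held one. Ccl9, a chemokine of myeloid cells, was 5.42-fold and 2.04-fold higher than in other cells and 2.44-fold (2.08 to 2.84) and 1.34-fold (0.87 to 2.001) higher than in neighbours. No gene of the lists for mast cell transcription factors and for stress and immediate early genes was on the panel.

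Of the cytokine list, Ccl9, Ccl12 and Areg were on the panel. Ccl12, a chemokine of macrophages, had 5 transcripts in SspA+HDM and 1 in mock. Areg, the gene of the growth factor amphiregulin, had 3 transcripts in 213 cells in SspA+HDM (1.41% of cells, against 9.31% of other cells) and 0 in 49 cells in mock, which by the same limit allows up to 6.12%. Among the other genes of blood cells, Lst1 had 22 transcripts in SspA+HDM and 8 in mock, and Cd300lf, an inhibitory receptor of myeloid cells, had 21 and 3. Lst1 was found in 9.39% of Cpa3-high cells in SspA+HDM (5.83 to 14.1%) and 16.3% in mock (7.32 to 29.7%), against 4.55% and 2.17% of other cells. Both of these genes were chosen after their values were seen.

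Markers of other cell types were present in the Cpa3-high cells to different degrees. The 8 measured fibroblast genes summed to 141715 CPM in Cpa3-high cells, 112526 CPM in neighbours and 47001 CPM in other cells in SspA+HDM, and to 129267, 82374 and 63500 CPM in mock. The 4 adipocyte genes summed to 84432, 58360 and 39174 CPM in SspA+HDM and to 166528, 119064 and 75018 CPM in mock, with Car3 the most abundant. The 5 blood endothelial genes summed to 9801, 17366 and 6862 CPM in SspA+HDM and to 3539, 8109 and 4498 CPM in mock, so in both sections they were lower in Cpa3-high cells than in the cells around them. The 6 granulocyte genes summed to 3886, 4606 and 3129 CPM in SspA+HDM and to 5412, 4772 and 4232 CPM in mock, with Il1r2 the most abundant. In the mock Cpa3-high cells 4 of these genes were at 0. T cell genes summed to 394 CPM in Cpa3-high cells, 826 CPM in neighbours and 475 CPM in other cells in SspA+HDM. In mock all 3 were at 0 in Cpa3-high cells, against 313 CPM in neighbours and 321 CPM in other cells. Lymphatic genes summed to 225 CPM in SspA+HDM and 1457 CPM in mock. Kcna1, a potassium channel, had 13 transcripts in SspA+HDM and 0 in mock. The part of these cells' transcripts in the values of the Cpa3-high cells was not tested.

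Between treatments, genes within Cpa3-high cells differed in both directions, and the part of transcripts from other cells in these differences was not tested. With 73 genes at 50 or more transcripts in the Cpa3-high cells of at least 1 section, 19 (26.0%) read at least 2-fold above mock in SspA+HDM, and 10 (13.7%) at least 2-fold below. Without SspA+HDM strip 1 the genes above numbered 9 of 50, and without SspA+HDM strip 2 they numbered 12 of 39. Over all other cells, the same 73 genes gave 6 higher (8.22%) and 10 lower (13.7%). The median log2 ratio was 0.27 in Cpa3-high cells, -0.23 in other cells and 0.28 in neighbours. Of the 73 genes, 50 passed the minimum in SspA+HDM only, where 17 of the 19 higher genes lie. That minimum is a count, and the Cpa3-high cells held 17754 transcripts in SspA+HDM and 4804 in mock. A gene could thus pass at a lower CPM in SspA+HDM than in mock. The numbers of higher and lower genes were therefore not reached on equal terms. A gene that passed through 1 section only was also chosen by its count there. Of the 22 genes that passed in both sections, 2 were higher and 8 lower.

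Of the genes of the skeletal muscle list 3 of 4 were lower, and of the adipocyte list 2 of 3. The fibroblast list went both ways, with 3 of 7 lower and 2 of 7 higher. Actn3, the actinin of fast muscle fibres, read 2253 CPM in SspA+HDM and 15404 CPM in mock (6.84-fold lower). Parvalbumin (Pvalb) was 5.75-fold lower, the muscle glycogen phosphorylase Pygm 5.54-fold and titin (Ttn) 3.75-fold, and Cryab, a small heat shock protein of muscle, was 2.68-fold lower. Pi16, a marker of adventitial fibroblasts, was 2.95-fold lower, Pcolce2 2.51-fold and Igfbp6 2.16-fold. Cd36, a fatty acid receptor, was 2.06-fold lower and Car3 2.04-fold, at 58635 CPM in SspA+HDM and 119692 CPM in mock. Of the 10 genes, 8 were also at least 2-fold lower in neighbours and 8 in all other cells. Of the 19 higher genes, 12 were also at least 2-fold higher in neighbours and 4 in all other cells. Among all 73 genes, 17 (23.3%) passed 2-fold upward in neighbours and 9 (12.3%) downward. The 4 genes of the skeletal muscle list summed to 26417 CPM in SspA+HDM and 97002 CPM in mock within Cpa3-high cells, and to 34476 and 92761 CPM in neighbours.

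The higher genes included macrophage, matrix, endothelial and epidermal genes. Krt16, a keratin of activated epidermis, had 179 transcripts in SspA+HDM and 0 in mock, which makes it at least 16.1-fold higher with the mock group set to 3 counts. It was 19.3-fold higher in neighbours. Ms4a7, a membrane protein of macrophages, had 74 transcripts in SspA+HDM and 2 in mock (10.01-fold, 2.68 to 84.2), and Mpeg1, a pore-forming protein of macrophages, 78 and 3 (7.04-fold, 2.32 to 34.9). In neighbours they were 3.56-fold and 2.53-fold higher. Ms4a6b was 6.90-fold higher, Ctss, a lysosomal cysteine protease, 2.83-fold and Ms4a6c 2.71-fold. Stmn1, a microtubule regulator of dividing cells, was 6.16-fold higher (3.06 to 14.5) and the water channel gene Aqp1 5.82-fold (2.19 to 21.8). Biglycan (Bgn) was 2.93-fold higher at 42751 CPM in SspA+HDM and 14571 CPM in mock, and Mfap4 2.73-fold. In neighbours Bgn was 3.18-fold and Mfap4 2.72-fold higher, close to the values within the Cpa3-high cells.

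**Figure D4:**
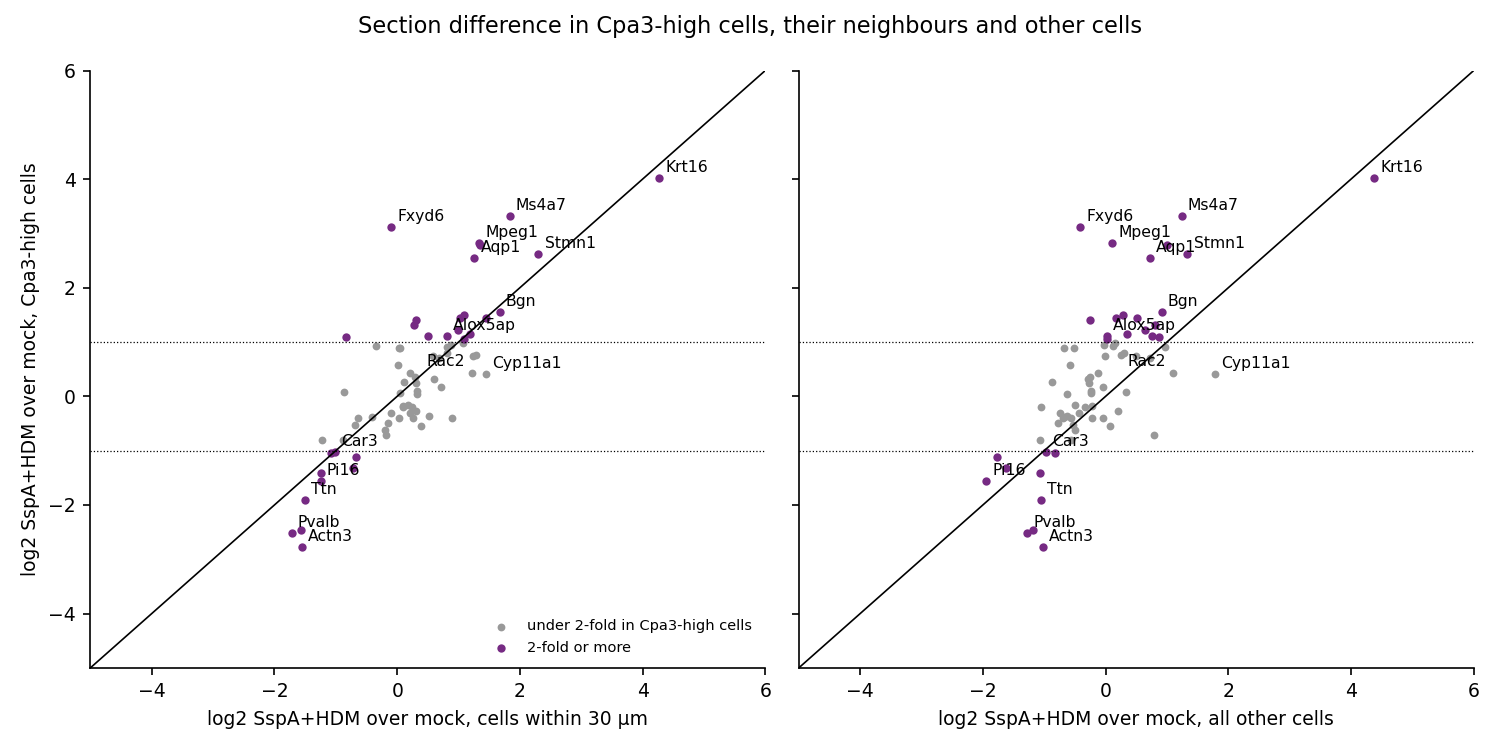
Each point is 1 of the 73 genes compared, with log2 of SspA+HDM over mock in Cpa3-high cells upward, against the same in cells within 30 µm (left) and in all other cells (right); the solid line is equality and the dotted lines mark 2-fold in Cpa3-high cells. Krt16 is placed with its mock count at 3, Fxyd6 lies far above the line in both panels, and muscle genes lie at the lower left.

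Fxyd6, a regulator of the sodium pump, was the gene of the 73 whose difference stood furthest above that of neighbours and of other cells, with 64 transcripts in SspA+HDM and 2 in mock (8.66-fold, 2.30 to 73.0), where neighbours read 0.93-fold and all other cells 0.75-fold. In mock its level in Cpa3-high cells, 416 CPM, was below that of neighbours at 3120 CPM. In SspA+HDM the levels were 3605 CPM in Cpa3-high cells and 2911 CPM in neighbours. The contrast thus rests on 2 transcripts in 49 mock cells.

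For Cyp11a1, Rac2, Ndrg1 and Satb1, which stood 2-fold above neighbours in both sections, the ratios between treatments were under 2-fold. Cyp11a1 was 1.32-fold higher in SspA+HDM (1.08 to 1.63), Rac2 1.35-fold (0.92 to 2.04), and Ndrg1 1.49-fold (1.07 to 2.13), and Satb1 was 0.88-fold (0.50 to 1.61). Laptm5 was 1.66-fold higher (1.22 to 2.31), with strips at 17608 and 15901 CPM in SspA+HDM and 13540 and 5858 CPM in mock, so without mock strip 1 it would pass 2-fold. Ccl9 was 1.86-fold higher (1.23 to 2.93), with strips at 12097 and 8629 CPM in SspA+HDM and 8124 and 2253 CPM in mock. Alox5ap, with 128 and 16 transcripts, was 2.16-fold higher (1.28 to 3.90), while neighbours read 1.75-fold and other cells 1.01-fold. Its strips read 9543 and 5526 CPM in SspA+HDM and 4642 and 1803 CPM in mock, and its log2 ratio ran from 0.37 to 2.14 over the alternatives. Mock strip 2 held 5 transcripts of Ccl9 and 4 of Alox5ap, so the size of both ratios depends on the mock strip used. The 9 measured genes of the macrophage list summed to 33063 CPM in SspA+HDM and 15404 CPM in mock within Cpa3-high cells, to 23577 and 14447 CPM in neighbours, and to 8741 and 8528 CPM in other cells. That list includes Ccl9, so its sum is not separate from the Ccl9 value. The part of macrophage transcripts in the Alox5ap and Ccl9 values, both also genes of macrophages, was not tested. Cd3d, of the T cell list, had 3 transcripts in SspA+HDM and 0 in mock. It was in 1.41% of Cpa3-high cells in SspA+HDM (0.29 to 4.06%), against 2.66% of other cells. In mock it was in 1.42% of other cells. These counts are too low to separate Cpa3-high cells from other cells.

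Around the Cpa3-high cells lay 3641 neighbours in SspA+HDM and 753 in mock. By the 4 epithelial genes 24.0% of them were epithelial in SspA+HDM, against 47.8% of cells farther away, and 32.5% against 43.6% in mock. With 130 genes at 100 or more transcripts in the neighbours of each section, 38 (29.2%) read at least 1.5-fold above cells farther away in both sections, and 16 (12.3%) at least 1.5-fold below. Ranked by the lower of both sections, the 6 highest were Pck1, Hp, Retn, Vwf, Rgs5 and Plvap. Pck1 was at 2.63-fold and 2.66-fold, Hp at 2.51-fold and 2.55-fold and Retn at 2.47-fold and 2.73-fold. Of genes known from vessels, Vwf, the von Willebrand factor of endothelium, was at 3.11-fold and 2.42-fold, Rgs5, a gene of pericytes, at 3.25-fold and 2.40-fold, and Plvap, of endothelial fenestrae, at 3.09-fold and 2.19-fold. The lowest were the late epidermal genes Gm94, Lor, Ivl and Them5, at 0.07-fold to 0.11-fold in SspA+HDM and 0.31-fold to 0.38-fold in mock.

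In a comparison added after the data were seen, cells at or above the limit on the 4 epithelial genes were left out on both sides. This did not remove all keratinised cells: in SspA+HDM the keratinocyte list still summed to 24791 CPM in neighbours and 158373 CPM farther away (0.157-fold), and in mock the ratio was 0.754-fold. The lists below are shares of the same total, and the part of these cells in them was not tested. The blood endothelial list, 5 genes, summed to 24714 CPM in neighbours and 11838 CPM farther away in SspA+HDM (2.09-fold), and to 11526 and 7167 CPM in mock (1.61-fold). The mural list, which holds Rgs5, read 0.871-fold in SspA+HDM and 0.784-fold in mock, and the lymphatic list 1.21-fold and 0.880-fold, so the vessel lists did not move one way. The macrophage list read 2.23-fold in SspA+HDM and 1.52-fold in mock, and the granulocyte list 1.55-fold and 1.38-fold. The T cell list read 2.10-fold in SspA+HDM and 1.08-fold in mock (0.63 to 1.74). The fibroblast list read 2.001-fold and 1.11-fold, the adipocyte list 1.14-fold and 1.37-fold, and skeletal muscle genes 0.358-fold and 0.565-fold. When all cells farther away were weighted to the depths of the neighbours instead, 6 of 130 genes were 1.5-fold higher and 9 were 1.5-fold lower, and Pck1, Hp and Retn were under 1.5-fold in both sections.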

How the data were processed

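Xenium In Situ v1 was run on 5-µm FFPE sections with a mouse tissue panel of 379 genes, per the labels. The deposited tables give each decoded transcript with its position, its cell outline, a flag for lying over a nucleus and a quality score, which the authors' files hold unfiltered, and the vertices of each outline. Decoding and segmentation software is not given in the sources used here. Gene transcripts with a score of at least 20 were counted per outline, and outlines with at least 20 were kept. No doublet caller was run. Strips are sets of cells linked within 100 µm that hold at least 5% of a section's cells. Depth was measured from the outer edge of the tissue. With 1 section per treatment no test was made. Ratios carry exact conditional binomial, counts exact Poisson and shares exact Clopper-Pearson intervals at 95%, for counting error only, and with a floor of 3 counts for a group at 0. The ratio code was checked on simulated counts. The members and gene lists were chosen with earlier results of these data known.

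Named genes were all measured genes of the mast cell lists, the 15 highest and 5 lowest ratios over other cells, the 10 highest and 10 lowest between treatments, the 6 highest and 4 lowest of neighbours, and the most abundant gene of each other marker list. Lyve1 and Des, the most abundant genes of the lymphatic and mural lists, have no values given. Others are said to have been chosen after their values were seen, or belong to a stated count. Mpo, Prg2 and Csf3r were named under none of these rules. Alternatives changed the quality score, the Cpa3, share, epithelial and total minimums, the nucleus restriction, strips, scale, filters, reference cells and neighbour distance. Promoters came from RefSeq tables of GRCm38.p6. Python 3.11.15, numpy 2.4.6, scipy 1.17.1, pandas 2.3.3 and matplotlib 3.10.9 were used. One marker list is not reported here.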

Additional observations from a re-analysis of the deposited data

How the results depend on the processing

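Of the summary values recomputed under the alternatives, 118 stayed within the spread or 1.5 times of the value reported and 29 did not. For single genes, 897 recomputed values were classed as unchanged, 186 as moved and 2 as reversed. The ratio of the shares of Cpa3-high cells, 1.5, ran from 1.23 without mock strip 2 to 1.87 without mock strip 1, was 1.25 with transcripts over the nucleus only and was 2.42 per mm2 of tissue. The ratio per millimetre ran from 3.52 to 4.70 over the strips left out. Median Cpa3 per cell was 7 in SspA+HDM and 7 in mock with a Cpa3 minimum of 3, and 15 and 14 with a minimum of 10. With transcripts over the nucleus only, the mock cells lay at 58.8% of the depth. The 22 genes higher than in other cells became 11 of 49 with a Cpa3 minimum of 10, 10 of 19 over the nucleus, 4 of 83 against cells within 30 µm, and 17 to 24 with a strip left out. The 8 lower genes became 5 with a quality minimum of 30, 2 with a Cpa3 minimum of 10, 3 with Cpa3 at least 10% of the cell, 1 over the nucleus, 5 against cells within 30 µm, 17 of 132 at 20 transcripts, and 3 to 8 with a strip left out. Against those neighbours, Ccdc80 turned to -0.082 and Cp to -0.039 (log2) in SspA+HDM. The 19 genes higher in SspA+HDM became 12 with a Cpa3 minimum of 10, 11 with Cpa3 at least 10% of the cell, 3 over the nucleus, 11 without genes below their level in neighbours, 43 of 164 at 10 transcripts, and 9 (without SspA+HDM strip 1) to 24 with a strip left out. The 10 lower became 1 over the nucleus, 20 at 10 transcripts, and 7 to 11 with a strip left out. The 38 genes higher in neighbours became 25 of 184 within 50 µm, 6 with depth-weighted cells and 25 of 98 among non-epithelial cells, and the 16 lower became 9 with depth-weighted cells. Fewer or more genes passed the minimum in most of these settings, and the cause was otherwise not tested. The 49 mock cells limit the precision of every difference between treatments. No paired analysis was possible because each treatment has 1 section.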
